A study of Mus musculus with 7 samples.

Results

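The chromatin regulators described here are 10 genes whose products write, remove or read marks on chromatin in germinal centres: Ezh2, Eed, Suz12, Kmt2d, Crebbp, Ep300, Tet2, Hdac3, Kdm1a and Arid1a. They were chosen by name, through probes that the platform annotation ties to 1 gene symbol. All 10 were found among the 21515 genes of the array, each through 1 probe, and all 10 were bright enough to be among the 16136 genes tested. The RNA came from splenic B cells positive for B220, CD95 and GL7, sorted from mice given sheep red blood cells 7 days before. Arrays were made from 4 wild-type (WT) and 3 RRas2-deficient samples, 1 array each, and every mouse of both groups had been immunized. The title of the series is about the need of germinal centre B cells for R-Ras2, a small GTPase, and the genotypes are compared for that question. The allele behind the deficiency, the cells that lack the protein, the strain, the age and whether a sample pools mice are not stated in the labels, and the description of the deficient samples writes Rras in place of RRas2. Replicates are called biological without naming animals, so the p-values rest on how far these samples differ, and part of that may be technical.

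Chromatin marks decide which genes a germinal centre B cell can use while it divides and mutates its antibody genes. Polycomb repressive complex 2 (PRC2), built from the methyltransferase EZH2 with EED and SUZ12, puts repressive methyl groups on lysine 27 of histone H3 and, together with the repressor BCL6, holds cell cycle brakes and plasma cell genes silent. KMT2D methylates lysine 4 of histone H3 at enhancers, CREBBP and EP300 acetylate histones at the same enhancers, and HDAC3, recruited by BCL6, removes those acetyl groups. TET2 oxidises methylated cytosine, KDM1A (LSD1) takes methyl groups off lysine 4, and ARID1A belongs to the SWI/SNF (BAF) remodelling complex. Several of these genes are recurrently mutated in lymphomas that arise from germinal centres.

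The 7 arrays form 2 sets by the spread of their values, and both sets hold both genotypes. Log2 intensities had an interquartile range of 2.37 to 2.49 on WT replicates 1 and 2 and RRas2-deficient replicate 2, called the narrower set here. On the other 4 arrays, the wider set, it was 2.69 to 2.91. The sets were parted at the widest gap in that range, and its origin is not stated in the labels. WT replicate 3 read Xist, the RNA of the inactive X chromosome, at 6.61 against 9.43 to 10.29 on the other 6 arrays, and Y-linked Eif2s3y at 6.75 against 3.09 to 4.40. Rras2 read 7.13 to 8.66 in WT and 6.68 to 7.12 in deficient samples, so the genotypes barely part. The difference of -0.99 ± 0.39 (SE) did not pass the threshold on adjusted p used below. With the array set as a block it was -1.13 ± 0.20 (SE), with an adjusted limma p of 0.296. In WT Rras2 was higher on the wider arrays by 1.26. Between genotypes it differed by -0.59 within the narrower set and by -1.50 within the wider set. The germinal centre genes Bcl6 (9.07 to 10.02) and Fas, which encodes CD95 (7.11 to 8.77), were above the limit for dim genes (3.48) on all 7 arrays. Both were higher on the wider arrays, Bcl6 by 0.69 in WT and 0.48 in deficient cells, and Fas by 1.39 and 1.10. All levels are log2 intensities, an array has no read depth, and levels of different genes are not compared because probes differ in brightness.

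None of the 10 regulators differed between genotypes past the threshold. In a limma fit over all genes 0 of 10 passed an adjusted p of 0.05 (2 of 16136 tested genes, 0.0124%, did), and 0 of 10 had an unadjusted p under 0.05 (0.818% of tested genes did). The genotypes overlapped for every one of the 10, whereas 1.08% of tested genes showed no overlap. Means were lower in deficient cells for 4 members and higher for 6, where 48.3% of tested genes were lower. The median difference over the members was 0.02 on the log2 scale, beside 0.00 over all tested genes. Two-sided exact permutation tests over the 35 ways to split 7 arrays into 4 and 3 gave p from 0.171 for Tet2 to 0.971 for Ezh2, and the smallest p they can give is 0.0286.

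**Figure D1:**
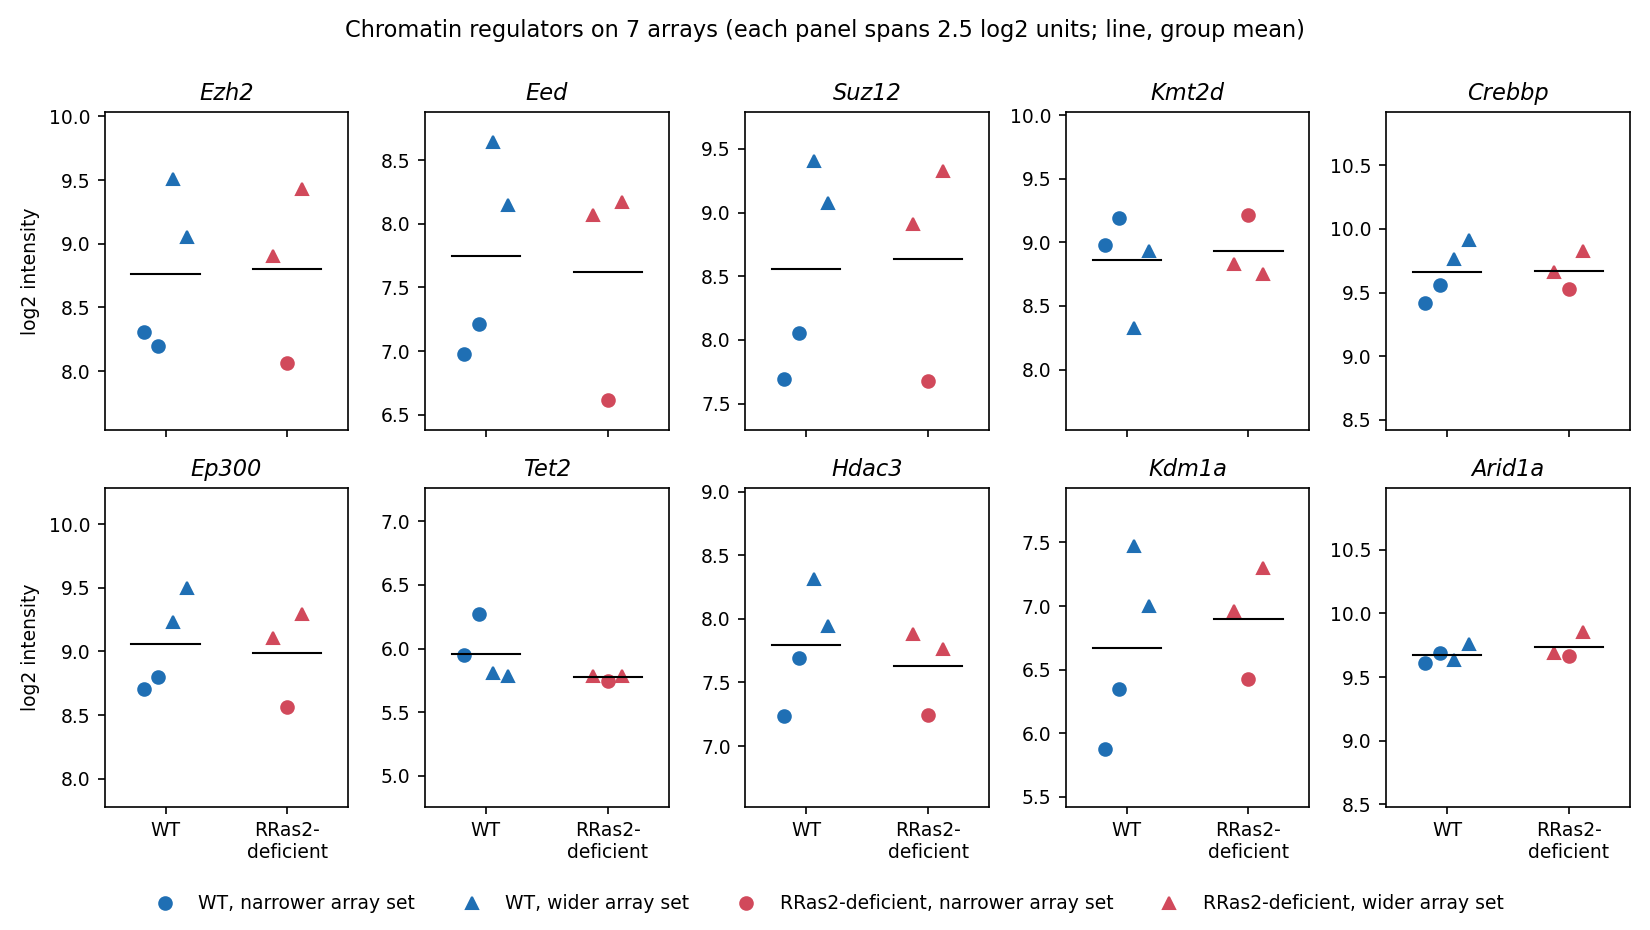
Log2 intensity of each regulator on the 4 WT (blue) and 3 RRas2-deficient (red) arrays; circles are arrays of the narrower set, triangles arrays of the wider set, and lines are group means. The genotypes overlap in all 10 panels. All wider arrays lie above all narrower ones for 7 genes (Ezh2, Eed, Suz12, Crebbp, Ep300, Hdac3 and Kdm1a), and below them for Kmt2d.

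The PRC2 core parted by array set, and the genotypes overlapped. The promoters of its 3 core genes are shown with those of Kdm1a, which followed the same arrays, and of Kmt2d, which ran the other way. Each line is the 200 bases before the RefSeq start site, 5′ to 3′ on the strand of the gene, from build GRCm38.p6. Capitals mark the CCAAT box (CCAAT) and the GC box (GGGCGG), searched on both strands.
Ezh2: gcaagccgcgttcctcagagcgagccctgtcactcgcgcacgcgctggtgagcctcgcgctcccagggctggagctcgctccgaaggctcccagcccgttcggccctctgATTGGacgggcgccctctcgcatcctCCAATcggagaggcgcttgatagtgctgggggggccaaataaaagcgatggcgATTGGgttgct
Eed: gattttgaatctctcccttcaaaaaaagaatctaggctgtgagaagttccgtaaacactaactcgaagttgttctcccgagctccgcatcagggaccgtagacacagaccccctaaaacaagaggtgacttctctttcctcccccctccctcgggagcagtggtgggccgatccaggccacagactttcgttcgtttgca
Suz12: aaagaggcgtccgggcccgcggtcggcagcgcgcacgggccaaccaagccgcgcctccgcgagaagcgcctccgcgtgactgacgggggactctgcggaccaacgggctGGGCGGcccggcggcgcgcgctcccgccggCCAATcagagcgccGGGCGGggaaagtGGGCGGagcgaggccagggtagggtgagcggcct
Kdm1a: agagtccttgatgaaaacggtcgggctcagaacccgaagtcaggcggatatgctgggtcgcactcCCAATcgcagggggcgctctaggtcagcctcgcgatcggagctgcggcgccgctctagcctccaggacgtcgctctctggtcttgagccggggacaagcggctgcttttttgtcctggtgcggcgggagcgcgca
Kmt2d: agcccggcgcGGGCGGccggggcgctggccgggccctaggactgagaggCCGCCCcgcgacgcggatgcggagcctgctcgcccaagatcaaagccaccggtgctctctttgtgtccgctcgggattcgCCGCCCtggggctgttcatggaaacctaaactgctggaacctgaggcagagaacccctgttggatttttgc
These windows lie at chr6:47595031-47595230, minus strand (Ezh2), chr7:89980977-89981176, minus strand (Eed), chr11:79992906-79993105, plus strand (Suz12), chr4:136602724-136602923, minus strand (Kdm1a) and chr15:98871206-98871405, minus strand (Kmt2d). Ezh2 held the CCAAT box 3 times, at 90, 64 and 11 bases before the start, and Suz12 and Kdm1a held it once each, at 61 and 135 bases. The GC box occurred 3 times each in Suz12 and Kmt2d, and in these 5 windows the 2 motifs do not overlap. Eed held neither. Of the 9 members with a window, shown or not, 3 held the CCAAT box and 6 the GC box, and 1, Arid1a, held the E2F site TTTCCCGC. Of 32851 promoter windows of this length 29.3% held the CCAAT box and 31.0% the GC box. The E2F sites TTTCCCGC and TTTGGCGC, the ETS core CCGGAAG, the E-box CACGTG and the TATA box TATAAA were in none of the 5 windows, and 0.776%, 0.344%, 6.29%, 5.26% and 9.96% of all windows held them. The GC content of the 5 windows was 66.0%, 51.5%, 77.0%, 64.5% and 67.0% in the order shown, and the median over all windows was 53.0%. A match is a run of letters and not a measured binding site.

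Ezh2, the methyltransferase of PRC2 (gene ID 14056), read 8.31, 8.20, 9.51 and 9.05 across the 4 WT arrays in replicate order and 8.91, 8.06 and 9.43 across the 3 deficient arrays. The 3 lowest values are the 3 arrays of the narrower set, 1 of them deficient. The WT and deficient means were 8.76 ± 0.62 (SD, n = 4) and 8.80 ± 0.69 (SD, n = 3), a log2 difference of 0.03 ± 0.43 (SE) with a 95% interval of -0.99 to 1.06. Blocking by array set gave -0.14 ± 0.16 (SE), with its sign turned and an interval of -0.52 to 0.24.

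Eed, the subunit that reads the methyl mark and stimulates EZH2 (gene ID 13626), read 6.98, 7.22, 8.64 and 8.15 in WT and 8.07, 6.61 and 8.17 in deficient samples, in the same order. Its lowest value was deficient replicate 2, below both WT arrays of the narrower set. The means were 7.75 ± 0.78 (SD, n = 4) and 7.62 ± 0.87 (SD, n = 3), a difference of -0.13 ± 0.54 (SE) with an interval of -1.41 to 1.16. Among the members Eed had the lowest p with the block, at -0.36 ± 0.14 (SE), a 95% interval of -0.68 to -0.03, and a limma p of 0.0366 that became 0.458 after adjustment. In that blocked fit 10.1% of all tested genes had an unadjusted p under 0.05, and 1 of 10 members did. Within the narrower set the difference was -0.48 (1 deficient array against 2 WT), and within the wider set -0.27 (2 against 2). Leaving out each array in turn moved the blocked value between -0.50 (without WT replicate 4) and -0.26 (without WT replicate 3), with adjusted p from 0.231 to 0.865.

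Suz12, the scaffold that holds the complex together (gene ID 52615), read 7.69, 8.05, 9.40 and 9.08 in WT and 8.91, 7.68 and 9.33 in deficient samples. Again the narrower arrays were lowest in both genotypes. The means were 8.56 ± 0.81 (SD, n = 4) and 8.64 ± 0.86 (SD, n = 3), a difference of 0.08 ± 0.55 (SE) with an interval of -1.22 to 1.39. With the block it was -0.15 ± 0.15 (SE), so that all 3 core genes had lower blocked means in deficient cells, none past the adjusted threshold. Across all tested genes 50.9% were lower in that fit.

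Between the array sets the PRC2 core differed by more than between genotypes. In WT the wider arrays exceeded the narrower ones by 1.03 for Ezh2, 1.30 for Eed and 1.37 for Suz12, which are 2.04-fold, 2.46-fold and 2.58-fold. In deficient cells the differences were 1.10, 1.51 and 1.44, or 2.15-fold, 2.85-fold and 2.71-fold, with 1 array on the narrower side. In WT 92.4%, 96.3% and 96.9% of tested genes had a lower signed difference than these 3. The direction was the same with a further quantile normalization, at 0.50, 0.74 and 0.83 in WT and 0.68, 1.11 and 0.98 in deficient cells, and with arrays centred on their medians. Without WT replicate 3, an array of the wider set, the genotype differences of the 3 genes were 0.28, 0.17 and 0.36. With that array left out and the array set as a block they were -0.036, -0.26 and -0.077. Neither fit gave these genes an adjusted limma p under 0.05. Over all 10 members, 7 were higher on every wider array than on every narrower one, and Kmt2d was lower on every one, where 26.9% and 13.6% of tested genes were. With a further quantile normalization these counts became 4 higher and 3 lower, beside 20.4% and 18.1% of tested genes. With arrays centred on their medians they became 8 higher and 0 lower, beside 40.9% and 4.96%. No test was made between sets, since they were drawn from the arrays' own spread.

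**Figure D2:**
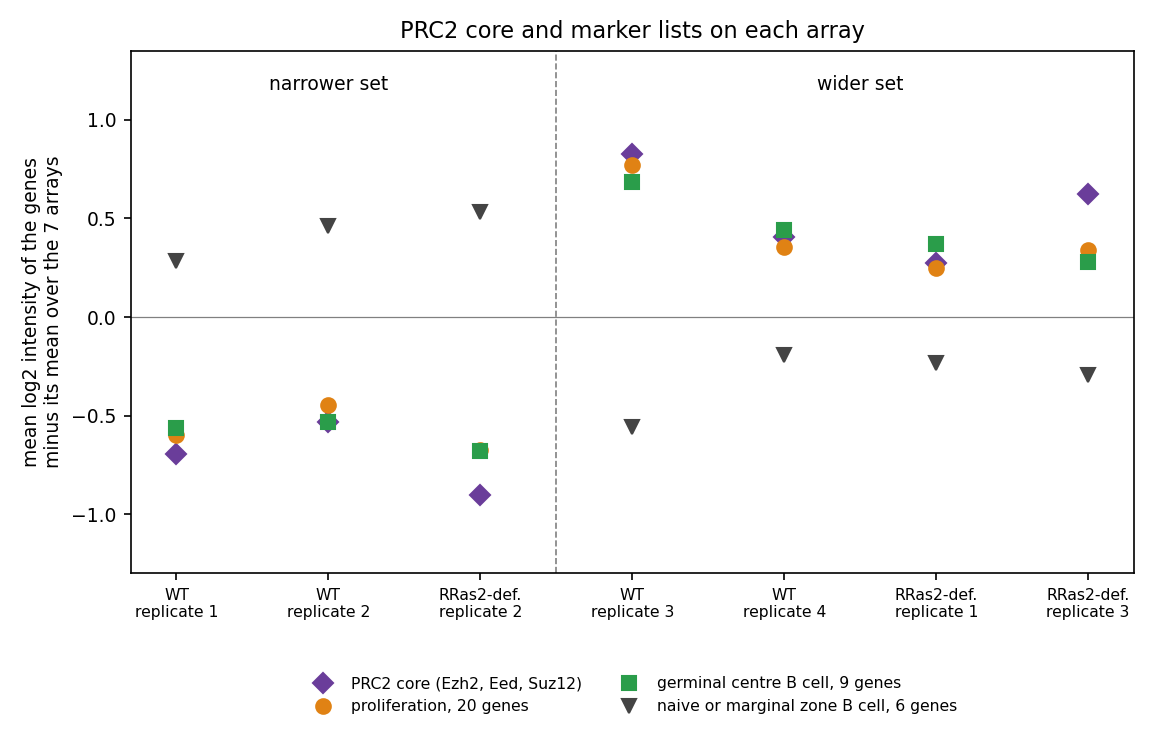
Mean log2 intensity of the PRC2 core, the proliferation list and 2 B cell lists on each array, minus its mean over the 7 arrays; the dashed line parts the narrower from the wider set. The PRC2 core, proliferation and germinal centre lists lie below 0 on the 3 narrower arrays and above it on the 4 wider ones, and the naive or marginal zone list the other way.

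Genes of dividing cells and of the germinal centre parted by array set in the same direction as PRC2. The mean of 20 measured genes of a proliferation list of 21, such as Mki67 (10.84 to 11.46 over the 7 arrays) and Top2a (8.98 to 10.46), lay between 7.65 and 7.88 on narrower arrays and between 8.58 and 9.10 on wider ones. The mean of 9 measured germinal centre and B cell markers of 12 was 8.88 to 9.02 and 9.83 to 10.24. The mean of naive or marginal zone B cell markers, 6 of 8 measured, ran the other way, at 7.82 to 8.07 and 6.98 to 7.35. Of those 6 genes 4 were lower on the wider arrays in both genotypes and 1 was higher in both. The directions of these list means also held with a further quantile normalization and with centring. The naive list was highest on deficient replicate 2 (8.07) and lowest on WT replicate 3 (6.98), and by genotype the proliferation list spanned 7.73 to 9.10 in WT and 7.65 to 8.66 in deficient samples. T cell markers (10 of 10 measured) lay at 4.34 to 4.80 on the narrower and 4.10 to 4.30 on the wider arrays, where the limit for dim genes was 3.48. Myeloid markers (10 of 10 measured, 2 of them under that limit) lay at 4.37 to 4.60 in WT and 4.47 to 4.76 in deficient samples, plasma cell markers (6 of 6) at 6.57 to 6.79 and 6.26 to 6.63, and the 1 erythroid marker of 6 that was measured at 4.66 to 5.12 and 4.65 to 4.98. In sorted cells measured in bulk, fewer cells of a type and less RNA per cell cannot be told apart, and the part of these lists in the PRC2 values was not tested.

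The lists of partner genes were compared between genotypes in the same fit. Of 11 PRC2 partners listed and tested, 7 were lower and 4 higher in deficient cells, with a median difference of -0.03, and 0 passed in either direction. Ezh1, the paralogue of Ezh2 known from cells that do not divide, read 6.82, 6.69, 6.83 and 6.69 in WT and 6.62, 6.65 and 6.40 in deficient samples. Every deficient array lay below every WT array, with a difference of -0.20 ± 0.10 (SE) and an adjusted p of 1.00. Among the 131 tested genes of all partner lists Ezh1 alone showed no overlap, beside 1.08% of all tested genes. It did not share the set difference of Ezh2, at 0.01 in WT and -0.15 in deficient cells, and with a further quantile normalization it was lower on the wider arrays (-0.45 and -0.51). Aebp2, a DNA-binding accessory subunit, differed between genotypes by 0.17 ± 0.12 (SE). With the array set as a block 3 of the 11 had an unadjusted p under 0.05, beside 10.1% of all tested genes in that fit, all lower in deficient cells and none past the adjusted threshold. They are the histone chaperone genes Rbbp4 (-0.29) and Rbbp7 (-0.32) and the accessory subunit gene Mtf2 (-0.46), named after their values were seen. These 3 were also higher on the wider arrays, by 0.93, 1.74 and 1.01 in WT, and by 0.38, 1.20 and 0.45 with a further quantile normalization. Of the 16 tested genes of Polycomb repressive complex 1, which binds the mark that PRC2 makes, 7 were lower and 9 higher, with a median of 0.01. Phc1 differed by 0.20 ± 0.12 (SE) and the ubiquitin ligase gene Rnf2 by -0.33 ± 0.29 (SE), and 0 passed.

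Kmt2d, the lysine 4 methyltransferase of enhancers (gene ID 381022), read 8.98, 9.19, 8.33 and 8.93 in WT and 8.83, 9.22 and 8.75 in deficient samples. Its 3 highest values are the narrower arrays, the reverse of PRC2. The means were 8.86 ± 0.37 (SD, n = 4) and 8.93 ± 0.25 (SD, n = 3), a difference of 0.07 ± 0.22 (SE) with an interval of -0.46 to 0.61, and 0.15 ± 0.15 (SE) with the block. WT replicate 3 was the lowest array, and without it the difference was -0.10, or -0.0057 with the block as well. The wider arrays were lower than the narrower ones by 0.46 in WT and by 0.43 in deficient cells (-0.46 and -0.43 as signed differences). They were lower under each scaling, at -0.97 and -0.82 with a further quantile normalization and -0.32 and -0.28 with centring.

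Of 17 other tested genes of lysine 4 methylation and lysine 27 demethylation, 10 were higher on the wider arrays in both genotypes and 6 lower, and with a further quantile normalization 4 were higher and 12 lower. The genes named next, apart from Wdr5 and Setd1b, were chosen after their values were seen. The paralogues Kmt2a and Kmt2b were lower on the wider arrays, with set differences of -0.41 and -0.23 in WT and -0.23 and -0.16 in deficient cells, and lower under both other scalings, though with centring Kmt2b came to -0.09 and -0.02. The paralogue Kmt2c did not follow in the deposited values, at -0.13 in WT and 0.06 in deficient cells. With a further quantile normalization it was lower in both (-0.67 and -0.41), and with centring in neither (0.0039 and 0.20). The shared core subunit genes Rbbp5 and Ash2l were higher there by 0.91 and 0.93 in WT and 0.72 and 0.98 in deficient cells, and higher under both other scalings, at 0.41 and 0.55 in WT with a further quantile normalization. The subunit genes Wdr5 and Dpy30 were higher by 0.19 and 0.29 in WT, which that normalization turned to -0.30 and -0.17. Between genotypes 4 of these 17 genes were lower and 13 higher, with a median of 0.04, and 0 passed. The core subunit gene Wdr5 differed by -0.18 ± 0.14 (SE) and the methyltransferase gene Setd1b by 0.15 ± 0.12 (SE).

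**Figure D3:**
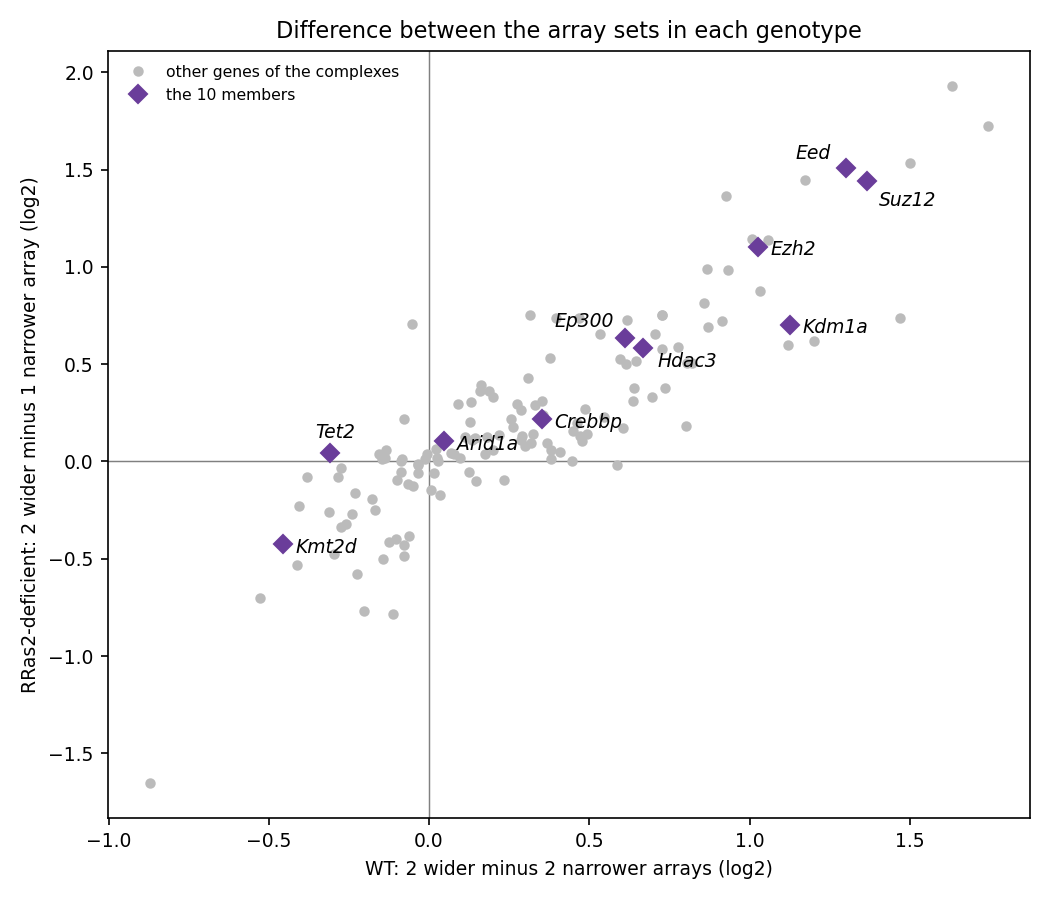
Difference in log2 intensity between wider and narrower arrays in WT (x axis) and in RRas2-deficient samples (y axis) for the 10 regulators (purple) and 131 other tested genes of their complexes (grey). Eed, Suz12 and Ezh2 lie at the upper right (from 1.03 in WT and 1.10 in deficient samples upward), Arid1a near the origin and Kmt2d at the lower left.

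Of the paired acetyltransferases, Crebbp had a range of 0.50 over the 7 arrays and Ep300 of 0.94. Crebbp (gene ID 12914) read 9.42, 9.56, 9.76 and 9.92 in WT and 9.66, 9.53 and 9.83 in deficient samples, all deficient values within the WT range. The means were 9.66 ± 0.22 (SD, n = 4) and 9.67 ± 0.15 (SD, n = 3). The difference was 0.01 ± 0.14 (SE), with an interval of -0.34 to 0.35. Ep300 (gene ID 328572) read 8.71, 8.80, 9.23 and 9.50 in WT and 9.10, 8.56 and 9.29 in deficient samples, with deficient replicate 2 the lowest array. The means were 9.06 ± 0.37 (SD, n = 4) and 8.99 ± 0.38 (SD, n = 3), a difference of -0.07 ± 0.25 (SE) and an interval of -0.68 to 0.53. Both were higher on all 4 wider arrays than on all 3 narrower ones, by 0.35 and 0.61 in WT and 0.22 and 0.64 in deficient cells. With a further quantile normalization that of Crebbp turned (-0.16 and -0.13) and that of Ep300 shrank to 0.07 and 0.21. Of 17 tested genes of other acetyltransferases and acetyl readers 9 were lower and 8 higher between genotypes, with a median of -0.0048, and 0 passed. The acetyltransferase gene Kat2b differed by 0.20 ± 0.12 (SE), and Trrap, a scaffold of acetyltransferase complexes, by 0.17 ± 0.13 (SE).

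Tet2 (gene ID 214133) read 5.95, 6.27, 5.81 and 5.79 in WT and 5.79, 5.75 and 5.79 in deficient samples. The deficient arrays lay at or below the lowest WT array, and WT replicate 4 and deficient replicates 1 and 3 hold 1 identical value, so the genotypes touch. The means were 5.95 ± 0.22 (SD, n = 4) and 5.77 ± 0.02 (SD, n = 3). The difference of -0.18 ± 0.13 (SE), with an interval of -0.49 to 0.13, had the lowest unadjusted limma p of the members, 0.216, and an adjusted p of 1.00. It rested on the narrower WT arrays: within that set it was -0.36, and within the wider set -0.01. Without WT replicate 2 it was -0.07. Of 13 tested genes of cytosine methylation 7 were lower and 6 higher, with a median of -0.02, and 0 passed. The methyl-cytosine binding protein gene Mbd1 differed by -0.36 ± 0.24 (SE), and Tet1, near the limit for dim genes at 3.54 to 4.53, by 0.30 ± 0.21 (SE). Its highest array was deficient replicate 2, at 4.53.

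Hdac3, the deacetylase of the NCoR and SMRT corepressors (gene ID 15183), read 7.23, 7.69, 8.31 and 7.95 in WT and 7.88, 7.24 and 7.77 in deficient samples. All deficient values lay within the WT range. The means were 7.80 ± 0.45 (SD, n = 4) and 7.63 ± 0.34 (SD, n = 3), a difference of -0.17 ± 0.28 (SE) with an interval of -0.83 to 0.50. With the block it was -0.27 ± 0.14 (SE), with an unadjusted limma p of 0.0957 and an adjusted p of 0.576, and within the narrower and wider sets it was -0.22 and -0.31. The wider arrays were higher by 0.67 in WT and 0.58 in deficient cells, and by 0.09 and 0.13 with a further quantile normalization. In the list of other deacetylases and corepressor subunits 9 of 15 tested genes were lower and 6 higher, with a median of -0.03, and 0 passed. Hdac4 differed by -0.26 ± 0.18 (SE) and Gps2, a corepressor subunit, by 0.18 ± 0.14 (SE). Deficient replicate 2 was the lowest array for Hdac4 at 5.90, and the other 2 deficient arrays read 6.60, at the lower end of WT.

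Kdm1a, which encodes the demethylase LSD1 (gene ID 99982), read 5.87, 6.35, 7.47 and 7.00 in WT and 6.96, 6.43 and 7.30 in deficient samples. The 3 narrower arrays were again the lowest, and WT replicate 1 the lowest of all. The means were 6.67 ± 0.70 (SD, n = 4) and 6.90 ± 0.44 (SD, n = 3). The difference of 0.22 ± 0.41 (SE) was the largest of the members in size and had an interval of -0.75 to 1.19. With the array set as a block it was 0.06 ± 0.19 (SE). When the interquartile range replaced that block as covariate it was 0.31 ± 0.12 (SE), with a limma p of 0.0397 that became 0.942 after adjustment. In that fit 759 of 16136 tested genes had an unadjusted p under 0.05, and 1 of 10 members did. The direction differed within the sets, at 0.32 on the narrower arrays and -0.11 on the wider ones, and without WT replicate 3 the difference was 0.49. Between sets Kdm1a differed by 1.13 in WT and 0.70 in deficient cells, and by 0.71 and 0.34 with a further quantile normalization. Of 18 tested genes of its CoREST partners and of the NuRD complex 8 were lower and 10 higher between genotypes, with a median of 0.04, and 0 passed. Gse1, a CoREST-associated gene, differed by 0.29 ± 0.15 (SE) and Gfi1b, a transcription factor that recruits LSD1, by -0.23 ± 0.14 (SE).

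Arid1a, a DNA-binding subunit of BAF (gene ID 93760), was the least variable member. It read 9.61, 9.69, 9.63 and 9.76 in WT and 9.69, 9.67 and 9.85 in deficient samples, with deficient replicate 3 the highest array. Only 8.94% of tested genes had a smaller range over the 7 arrays than its 0.24. The means were 9.67 ± 0.07 (SD, n = 4) and 9.74 ± 0.10 (SD, n = 3), a difference of 0.06 ± 0.09 (SE) with an interval of -0.14 to 0.27. The sets differed by 0.05 in WT and 0.10 in deficient cells, which became -0.43 and -0.24 with a further quantile normalization. Of 24 other tested BAF genes 8 were lower and 16 higher between genotypes, with a median of 0.04, and 0 passed. Ss18 differed by 0.27 ± 0.19 (SE) and Bcl7c by 0.13 ± 0.09 (SE).

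**Figure D4:**
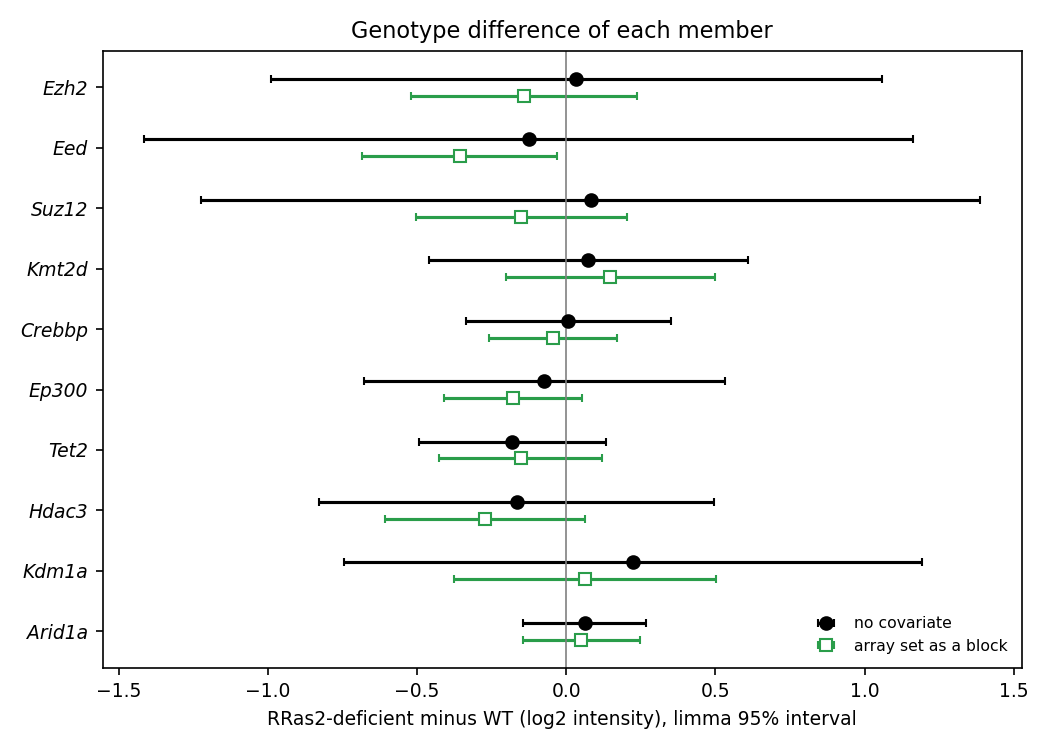
RRas2-deficient minus WT log2 difference of each regulator with limma's 95% interval, without covariate (black circles) and with the array set as a block (green squares). Every interval without covariate includes 0, from -0.14 to 0.27 for Arid1a to -1.22 to 1.39 for Suz12, and with the block that of Eed ends at -0.03.

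Without a covariate the intervals spanned 0 for all 10 members. They were widest for the 3 PRC2 genes and Kdm1a, whose array sets differ most in the deposited values. The moderated standard error was 0.43 to 0.55 for the PRC2 core and 0.09 for Arid1a, where the median over tested genes was 0.16. Under the block the errors of the PRC2 core were 0.14 to 0.16.

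**Figure D5:**
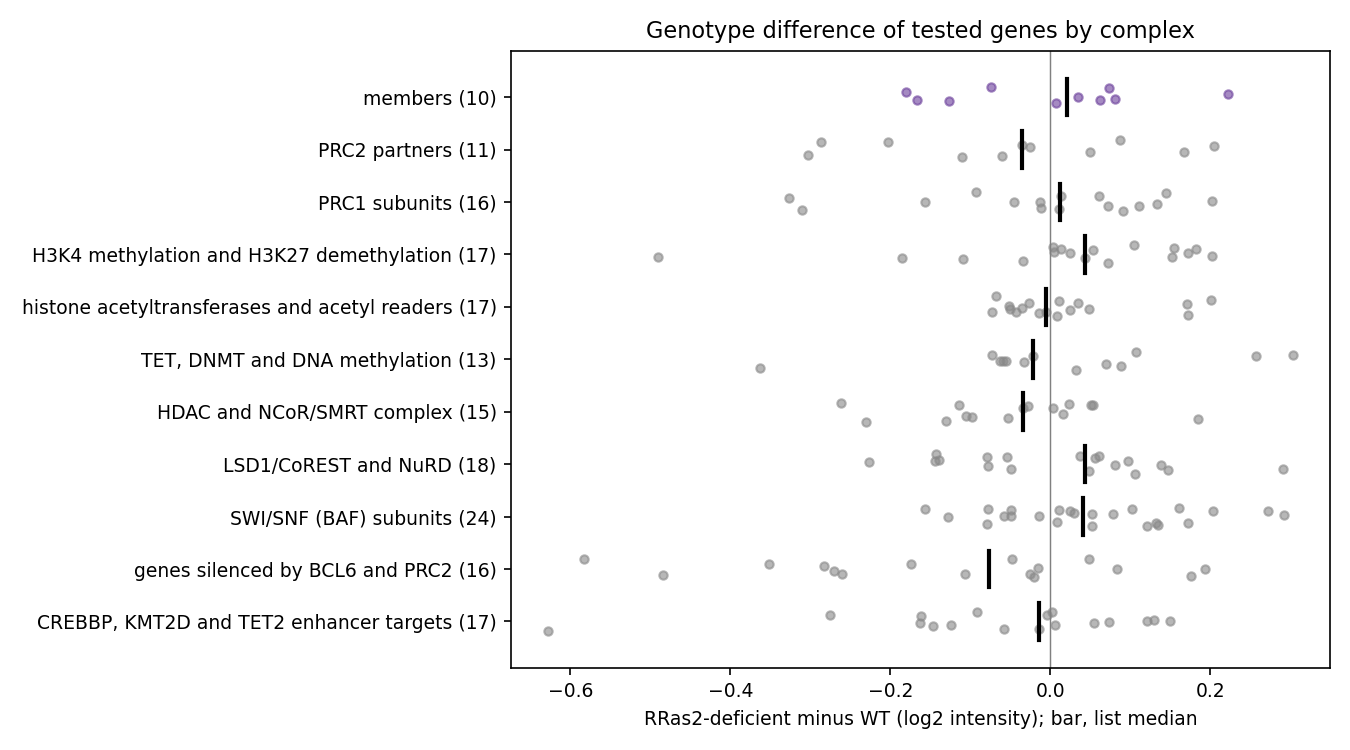
RRas2-deficient minus WT log2 difference of every tested gene in the 10 regulators, 8 lists of their complexes and 2 lists of their target genes; each point is a gene, and bars are list medians (vertical jitter carries no value). The list medians lie between -0.08 and 0.04, and no gene shown passed the adjusted threshold.

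Over the 8 lists of partner genes together, 59 of 131 tested genes were lower and 72 higher in deficient cells, and 0 passed by limma, with or without the array set as a block. An unadjusted p under 0.05 was reached by 0 genes without the block and 11 with it, or 8.40%, beside 0.818% and 10.1% of all tested genes. Of 16 tested genes known to be silenced by BCL6 and PRC2, 12 were lower and 4 higher, with a median of -0.08, and 0 passed. The D-type cyclin gene Ccnd2 read 5.81 to 6.48 in WT and 5.20 to 5.82 in deficient samples, overlapping narrowly. It differed by -0.58 ± 0.23 (SE), with a limma p of 0.0382 that became 1.00 after adjustment. Among the 33 tested genes of both target lists Ccnd2 alone had an unadjusted p under 0.05 (3.03%), beside 0.818% of all tested genes. Prdm1, the master regulator of plasma cells, differed by -0.27 ± 0.19 (SE). Of 17 tested genes named as enhancer targets of CREBBP, KMT2D or TET2, 10 were lower and 7 higher, with a median of -0.01, and 0 passed. Ciita, the activator of MHC class II genes, read 9.25 to 9.47 in WT and 9.49 to 9.58 in deficient samples. The genotypes did not overlap there, with a difference of 0.15 ± 0.09 (SE) and an adjusted p of 1.00. Among the 33 tested target genes Ciita alone showed no overlap, beside 1.08% of all tested genes. The antigen presentation gene H2-Ob differed by -0.27 ± 0.18 (SE).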

How the data were processed

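Total RNA of 7 samples was labelled and hybridised to 1-colour arrays, 1 array a sample. The deposited values are log2 intensities that the authors made with RMA in the R package oligo, per the submitters' processing notes; RMA corrects background, normalizes between arrays and summarises probes, and no scanner files were used here. Of 25349 probes, 22225 had 1 gene symbol in the platform annotation, 616 several and 2508 none; only the first were used. For 640 genes with several probes the brightest was kept, giving 21515 genes, and 5379 with a mean under the 25th percentile (3.48) were left out as dim. Groups came from the sample titles.

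Genotypes were compared (RRas2-deficient minus WT, two-sided) with limma 3.58.1 in R 4.3.3 (lmFit, eBayes) on all 7 arrays without covariate, with Benjamini-Hochberg adjustment over 16136 genes at 0.05, after the script was tested on simulated data. Intervals are moderated 95% intervals. Exact permutation tests used scipy 1.17.1 and were not adjusted. Alternatives changed the dim-gene filter, the probe of a gene, the normalization, the variance model, array weights and covariates, or left out an array; set differences under other scalings and the blocked fit without each array were added after seeing the data. The members and gene lists were chosen with earlier results of these data known. Named genes are the 10 members, and from each partner or target list every gene past the threshold and the 2 tested genes of lowest unadjusted p; others are marked as named after their values were seen. Correlations between members, which that rule also foresaw, are not given because the arrays fall into 2 sets. Promoter windows are the last 200 bases before each start in a RefSeq table of build GRCm38.p6, and coordinates are of that build. Member windows on 1 chromosome were skipped. Windows were kept for 9 of 10 members, all but Hdac3. The number of arrays limits the precision.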

Additional observations from a re-analysis of the deposited data

Results flagged for a closer look

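In 3 of the 35 genes checked, 1 WT array stood apart from the other 3, by a rule that chance meets in about 1 in 20 groups. Over all tested genes the share was 13.1%, and it was 3.89% among genes with no value shared between WT arrays and 42.6% among those with one. For Hdac4 and Bcl7c some WT arrays hold identical values. Hdac4, a class II deacetylase, read 6.70 on WT replicate 2 and 6.60 to 6.61 on the other WT arrays. Bcl7c, a BAF subunit, read 4.99 on the same array and 5.15 on the other 3. Ccnd2, the D-type cyclin gene named among the genes silenced by BCL6 and PRC2, read 6.48 on WT replicate 3 and 5.81 to 5.87 on the other WT arrays. None of the 10 regulators was among these genes.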

How the results depend on the processing

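No member passed an adjusted p of 0.05 in any of the 17 alternatives run. Over all genes, 2 passed in the main fit, 1 with centred arrays, 5 with array weights, 0 with the replicate block (176 at an unadjusted limma p under 0.05) and 0 to 2 with 1 array left out. Blocking by array set turned the sign for Ezh2 (-0.14), Suz12 (-0.15) and Crebbp (-0.043). Within the narrower and wider sets it turned for Ezh2 (-0.19 and -0.11) and Suz12 (-0.20 and -0.12), and within the wider set alone for Crebbp (-0.10) and Kdm1a (-0.11). Array weights turned it for Suz12 (-0.017), Kmt2d (-0.056) and Crebbp (-0.14), and centring for Crebbp (-0.013). With 1 array left out the differences ranged from -0.28 to 0.40 for Ezh2, -0.40 to 0.38 for Eed, -0.26 to 0.56 for Suz12, -0.10 to 0.18 for Kmt2d, -0.075 to 0.091 for Crebbp, -0.23 to 0.14 for Ep300, -0.35 to 0.028 for Hdac3 and -0.044 to 0.49 for Kdm1a; Tet2 and Arid1a kept their sign. A further quantile normalization turned the set difference of Crebbp (-0.16 in WT, -0.13 in deficient cells), Arid1a (-0.43 and -0.24) and, in deficient cells, Tet2 (-0.11). Deviations of same-numbered replicates correlated at -0.59, 0.78 and 0.66, and WT replicate 1 correlated best with deficient replicate 2 (0.72). Every pair of a WT and a deficient array within a set correlated positively (0.59 to 0.78), and every pair across sets negatively. These values therefore cannot show whether equal numbers mark a pairing. The replicate block gave Eed 0.0084 and Ep300 0.073, the same values as leaving out WT replicate 4, which has no deficient partner, so that array and not the block turned the sign. The cause of the other changes was not tested.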

Other observations

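The lysine 27 demethylase genes differed from each other across the array sets. Kdm6b, which encodes JMJD3, was lower on the wider arrays, with set differences of -0.87 in WT and -1.65 in deficient cells, where Ezh2 was higher. Its relative Kdm6a (UTX) was higher there, by 0.47 and 0.74, though in WT a further quantile normalization turned that to -0.10. Among the deacetylases, Hdac1 and Hdac2, catalytic subunits of NuRD and CoREST, were higher on the wider arrays by 1.47 and 1.50 in WT and by 0.74 and 1.53 in deficient cells; that normalization left 0.93 and 0.99 in WT and 0.33 and 1.20 in deficient cells. Uhrf1, which guides maintenance methylation of DNA behind the replication fork, was higher by 1.12 and 0.60, and by 0.55 and 0.14 after it. In BAF the ATPase gene Smarca4 differed by 0.10 and 0.02 (-0.35 and -0.23 after that normalization), and the core subunit gene Smarcb1 by 0.87 and 0.69 (0.29 and 0.24 after it). These genes were named after their values were seen, none of them passed the adjusted limma threshold between genotypes, and their set differences were not tested.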
